A study of Homo sapiens with 5 samples.

Results

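MDA-MB-468 cells that had spent 3 days in afatinib were compared with untreated cells of the same line, gene by gene. MDA-MB-468 is an established triple-negative breast cancer line with an amplified, wild-type EGFR gene, and the population used here carried a lentiviral library of lineage barcodes. Cells were assigned to a library by the prefix of their names. Of 4101 cells in 5 libraries, 479 came from the single afatinib D3 library (250 nM afatinib for 72 h), and 478 and 1063 came from untreated D0 replicates 1 and 2. The cells came from the barcoded population and were captured on a 3′ Chromium kit. The study's methods describe freezing for treated cells and thawing before capture, and do not say separately whether untreated cells were frozen. No allele, age or other agent distinguished the groups in the labels, and the afatinib libraries of D6 and D9 enter only where they are named. Whether the D0 replicates came from separate cultures is not stated in the labels.

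EGFR is a receptor tyrosine kinase that signals, alone or with ERBB2 and ERBB3, through the RAS-ERK cascade and through PI3K and AKT. Afatinib binds the kinase domain of EGFR, ERBB2 and ERBB4 covalently. ERK activity drives transcription of its own brakes, such as the DUSP phosphatases and the SPRY proteins, and of growth factors such as AREG that feed back onto EGFR. AKT keeps the FOXO transcription factors out of the nucleus, so FOXO target genes are commonly read as an inverse measure of PI3K and AKT output. Receptor kinases outside the ERBB family, such as IGF1R, MET and KIT, are known routes by which cells keep those cascades running when EGFR is blocked.

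The D3 library stood apart from the untreated libraries in the make-up of its RNA before any single gene was read. Total counts were 22976039 and 28148379 in the untreated libraries and 14517579 at D3, with a median of 45658.5, 25252 and 22715 UMIs per cell. Mitochondrially encoded (MT) transcripts took 7.25% and 7.80% of untreated counts and 17.2% of D3 counts. The median cell held an MT share of 6.80% and 7.48% in the untreated libraries and 19.5% at D3. Only 85 of 479 D3 cells (17.7%, exact binomial 95% interval 14.4 to 21.5) lay under 10% MT, against 379 of 478 (79.3%, 75.4 to 82.8) and 860 of 1063 (80.9%, 78.4 to 83.2) untreated cells. At D3 the median cell under 10% MT held 47011 UMIs and the median of the other cells 20056. The share of ribosomal protein transcripts was 18.9% and 18.4% in the untreated libraries and 13.3% at D3, and MALAT1, a nuclear RNA, took 0.588%, 0.694% and 1.67%. Every comparison was therefore repeated with only the cells under 10% MT. The part that RNA quality or cell loss plays in the differences below was not tested.

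**Figure D1:**
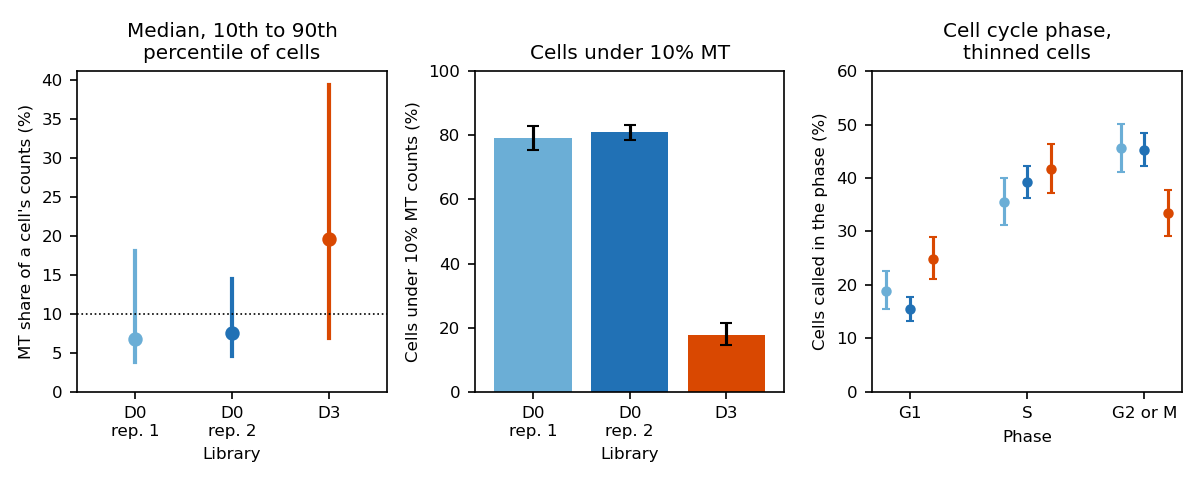
Cells of the untreated D0 libraries (blue) and of the afatinib D3 library (orange). The left panel gives the median and the 10th to 90th percentile of the MT share of a cell's counts in percent, the middle panel the percentage of cells under 10% MT and the right panel the percentage of cells called in each cell cycle phase, both with exact binomial 95% intervals. The D3 cells had a median MT share of 19.5%, and 33.4% of them were called in G2 or M phase against 45.6% and 45.3% of untreated cells.

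Transcripts of epithelial and basal marker genes were found in the cells. EPCAM, KRT8, KRT18, KRT19 and CDH1 were read in every library, as were KRT5, KRT14 and KRT17. ESR1 was at 0.305 and 0.141 CPM in the untreated libraries and 0.178 CPM at D3, where CPM is the count scaled to the size of the library. Of 8 immune marker genes 0 were among the genes analysed. Of 8 fibroblast markers 2 were analysed, with a summed level of 8.75 and 8.66 CPM in untreated cells and 5.47 CPM at D3, and of 7 endothelial markers 2 were, with 3.70, 4.05 and 6.43 CPM. Libraries D0 replicate 1, D0 replicate 2 and D3 shared 0 cell barcodes. The authors had adjusted the counts for the 2 captures of D0, and the deposited values carry a trace of it. Untreated D0 replicate 1 and D3 shared 4532 genes in which the value 2 was missing among 8316 testable genes, whereas untreated D0 replicate 2 shared 0 with either. The ratio to untreated D0 replicate 1 thus stays within values that were adjusted alike.

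With 1 treated library there is no spread to test against, so genes were described by size. A gene was called higher or lower at D3 when its log2 ratio was at least 1 in size, in the same direction, against both untreated libraries. The verbs rose and fell are used here only for such genes. Ratios were taken of CPM with 0.5 CPM added, which understates the change of low genes. Log2 ratios below are the mean of the ratios to both untreated libraries unless stated otherwise, and values for cells under 10% MT come from counts scaled within those cells. Of 12474 genes, 10281 had a mean level of at least 5 CPM. Among these, 271 (2.64%) were called higher and 290 (2.82%) lower. The untreated libraries differed from each other by the same size in 14 genes (0.136%). The authors had adjusted the D0 captures, which draws these libraries together, so this count and the spread below may understate the true difference. The median size of the log2 ratio was 0.0954 between the untreated libraries, with a 95th percentile of 0.247, and 0.357 and 0.365 between D3 and each of them. The median log2 ratio over all genes was -0.01. With the untreated libraries so close to each other, 4586 genes lay above and 4800 below both of them, 91.3% of all genes kept, so a gene's place outside both says little by its size. A difference of at least 4-fold was seen in 13 genes higher and 34 lower. Nearest to the limit, CDC14A was just called higher and SHFL just missed it, with smaller log2 ratios of 1.0002 and 0.9994, and MYCBP was just called lower where NDUFC1 just missed, with sizes of 1.0001 and 0.9998. In summed counts, fewer cells with a transcript and less transcript per cell cannot be told apart.

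In cells under 10% MT, 165 genes (1.63%) were called higher and 151 (1.49%) lower among 10125 genes kept. Of the higher genes, 94 were called in both sets, which is 34.7% of those in all cells and 57.0% of those in cells under 10% MT. Of the lower genes, 122 were called in both, 42.1% and 80.8%. All 290 genes called lower in all cells were also lower than both untreated libraries among cells under 10% MT, as were 204 of the 271 called higher on their own side, and 0 were called in the opposite direction. These counts take in only genes that also had a mean level of at least 5 CPM in cells under 10% MT. A gene called higher could thus be left out by its level. The 5 MT genes called higher are lowered by the filter itself. The counts therefore do not say how many increases changed direction. The higher and lower genes also differed in length. The median transcript length was 4125 nt for the genes called higher, 1712 nt for those called lower and 3251 nt for all kept genes, and long noncoding RNAs made up 16.2%, 7.24% and 4.07% of them. With the genes sorted by length into 5 equal groups, the median log2 ratio from the shortest to the longest group went through -0.39, -0.12, -0.01, 0.12 and 0.30 in all cells, and through -0.15, -0.02, 0.01, 0.03 and 0.08 in cells under 10% MT. With plain CPM, without the TMM factor, the split was 577 higher and 160 lower, so the balance of the 2 directions rests on the scaling. A gene at the limit of 5 CPM stands on 84 counts at D3 (exact Poisson 95% interval 3.99 to 6.19 CPM) and on 24 in the D3 cells under 10% MT (3.21 to 7.45 CPM). Intervals cover counting error only.

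**Figure D2:**
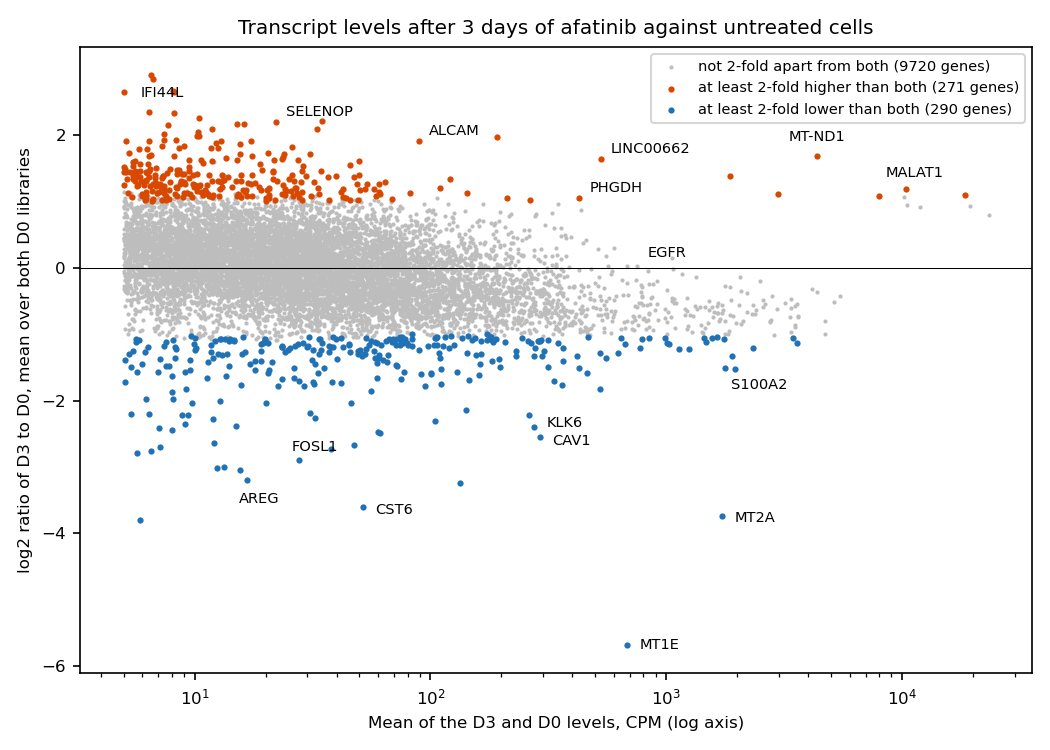
Log2 ratio of D3 to D0 (mean over both untreated libraries) against the mean level in CPM on a log axis, 1 point per gene kept. The 271 genes at least 2-fold higher than both untreated libraries are orange and the 290 at least 2-fold lower are blue. MT1E and MT2A lie lowest among the abundant genes, EGFR lies near 0 and MALAT1 is the most abundant of the labelled genes above 0.

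The transcript of the receptor that afatinib blocks was not called, while that of its ligand AREG fell. EGFR (chromosome 7, 55019017 to 55211628 on GRCh38) was at 834 and 863 CPM in the untreated libraries and 817 CPM at D3 (counting interval 804 to 831), a log2 ratio of -0.05 and of -0.23 in cells under 10% MT. AREG (chromosome 4, 74445136 to 74455005), which encodes amphiregulin, had 34.5 and 26.5 CPM in untreated cells and 2.86 CPM at D3 (2.11 to 3.79). It was the sole called member of the ERBB list. The D3 level was far below both untreated libraries, with a log2 ratio of -3.19 in all cells and -2.90 in cells under 10% MT. An AREG UMI was found in 9.83% and 8.47% of untreated cells and 0.418% of D3 cells (exact binomial interval 0.0506 to 1.5001) after every cell was thinned to 5000 UMIs. All cells here are of 1 line, so no cell type that lacks the gene gives a background for such shares. TGFA, another EGFR ligand, was at 9.14 and 9.65 CPM in untreated cells and 7.44 CPM at D3 and was not called. Of the 14 genes listed, 5 were kept, and ERBB4 and the ligands EREG, HBEGF, BTC, EPGN and NRG2 lay under the minimum level. The partner receptors ERBB2 and ERBB3 lay above both untreated libraries without reaching the limit. ERBB2 had 13.1 and 12.1 CPM in untreated cells and 22.3 CPM (20.1 to 24.7) at D3, and ERBB3 was at 20.9 and 20.6 CPM before and 32.1 CPM after. Their log2 ratios were 0.81 and 0.62 in all cells and 0.31 and 0.65 in cells under 10% MT.

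Feedback genes of the ERK cascade lay lower at D3, but not as a block. Of 19 kept genes on the ERK output list, 5 fell (FOSL1, DUSP4, DUSP5, PHLDA1 and SPRY2) and 0 rose. Over all genes kept 2.82% were called lower and 2.64% higher, and 1.49% and 1.63% in cells under 10% MT. These shares are the background for the counts of every list, and a list with 1 call can lie near them. The list's median log2 ratio was -0.32, and -0.69 in cells under 10% MT, where DUSP6 was called and PHLDA1 was not. FOSL1, an AP-1 subunit that accumulates with sustained ERK activity, had 79.2 and 85.6 CPM in untreated cells and 12.5 CPM (10.9 to 14.3) at D3, a log2 ratio of -2.67 in all cells and -2.67 in cells under 10% MT. It fell the furthest on the list, and by the same amount in both sets of cells. The phosphatase DUSP4, which removes phosphate from nuclear MAP kinases, went from 24.7 and 25.9 to 8.93 CPM, and DUSP5 went from 9.53 and 8.41 to 2.98 CPM. DUSP6, the phosphatase most closely tied to cytoplasmic ERK, had 14.8 and 14.01 CPM in untreated cells and 6.78 CPM at D3 and missed the limit against the nearer untreated library. SPRY2, an inhibitor of receptor to RAS signalling, fell from 111 and 111 to 55.2 CPM, while SPRY1 was at 45.7 and 48.6 CPM in untreated cells and 33.2 CPM at D3. The phosphatases and SPRY2 lay lower in D3 cells whichever cells were counted.

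The other members of the ERK list spread widely. The ETS factors ETV4 and ETV5 had log2 ratios of -0.72 and -0.32, and -0.93 and -0.71 in cells under 10% MT, in the direction of the phosphatases but short of the limit. EPHA2, a receptor kinase induced by ERK, stood at -0.70. CCND1, the cyclin through which growth factors open the cell cycle, had 162 and 166 CPM in untreated cells and 250.2 CPM at D3, and MYC was at 95.6 and 103 CPM before and 124 CPM after. Both therefore lay above, not below, the untreated libraries, with log2 ratios of 0.61 and 0.32. IER3, SPRED2, SPHK1, MAFF and ERRFI1, the last an inhibitor of the EGFR kinase, lay between -0.24 and 0.14 on the log2 scale, and EPHA4 and SPRED1 were at 0.22 and 0.48.

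**Figure D3:**
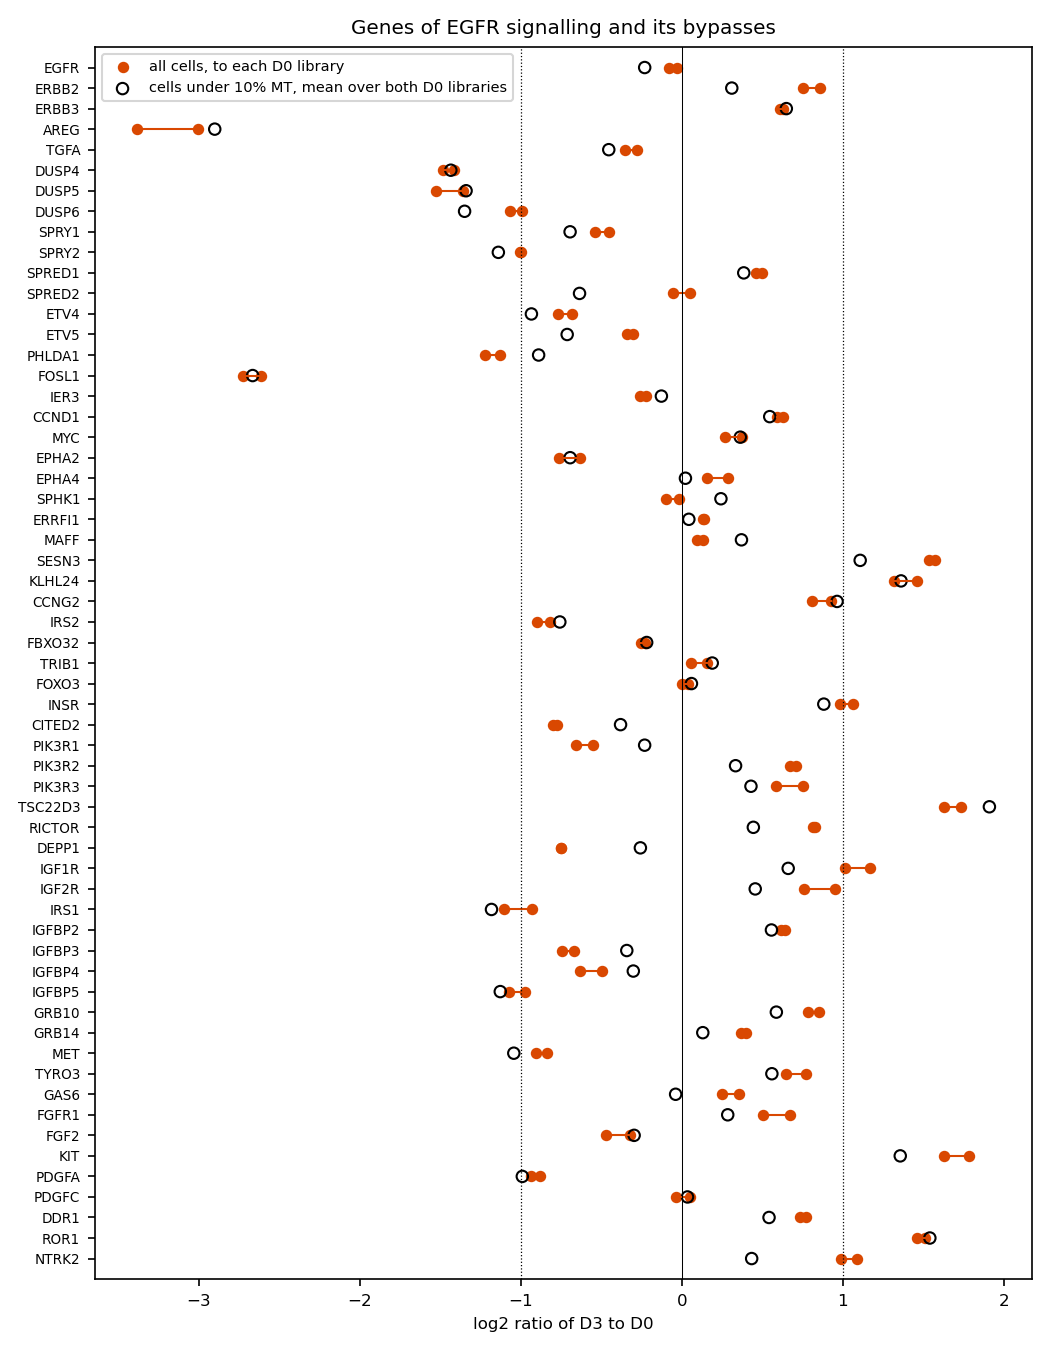
Log2 ratio of D3 to D0 for the 59 kept genes of the lists of ERBB receptors and ligands, ERK output, FOXO targets, the IGF axis and bypass receptor kinases. Orange points joined by a line give the ratio to each untreated library, open circles the mean ratio in cells under 10% MT and dotted lines a 2-fold difference. AREG and FOSL1 lie furthest left, and KIT, TSC22D3 and SESN3 furthest right.

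Immediate early genes did not follow the ERK feedback genes as a list. Of 16 kept AP-1 and immediate early genes 3 rose and 0 fell, with a median of 0.14, and 10 lay above and 6 below both untreated libraries. The AP-1 subunit FOSL1, which fell, was counted on the ERK list and not here. FOS, the AP-1 subunit induced within minutes of a stimulus, had 25.03 and 26.4 CPM in untreated cells and 57.5 CPM at D3, and FOSB went from 11.9 and 10.5 to 35.6 CPM. The nuclear receptor NR4A2 went from 5.44 and 4.68 to 13.03 CPM. In cells under 10% MT, FOS and ATF3 were called higher and EGR1 lower, with log2 ratios of 1.01, 1.07 and -1.05. EGR1, a zinc-finger factor downstream of ERK, had 20.8 and 21.7 CPM in untreated and 10.8 CPM in D3 cells when all cells were counted, which was not called.

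Genes on the side of FOXO and PI3K inhibition rose in part. Of 15 kept genes 3 rose and 0 fell, with a median of 0.67 in all cells and 0.33 in cells under 10% MT, where the same 3 genes were called. The list's median transcript length was 6744 nt. The longest of the 5 length groups of genes had medians of 0.30 in all cells and 0.08 in cells under 10% MT. TSC22D3, a FOXO and glucocorticoid target also known as GILZ, had 7.79 and 8.41 CPM in untreated cells and 27.1 CPM at D3, with log2 ratios of 1.68 and, in cells under 10% MT, 1.91. SESN3, a sestrin that restrains mTORC1, went from 9.53 and 9.29 to 28.6 CPM. KLHL24, an E3 ligase adaptor, went from 6.66 and 7.39 to 19.2 CPM. At D3 each of these 3 stood more than 2-fold above both untreated libraries. The insulin receptor gene INSR, a FOXO target, had a log2 ratio of 1.02, and CCNG2, a cyclin G linked to cell cycle exit, of 0.87, and both missed the limit against the nearer untreated library. Not all members lay on that side. IRS2, the insulin receptor adaptor that FOXO induces in liver, had 60.7 and 57.5 CPM in untreated cells and 32.4 CPM at D3, and CITED2 and DEPP1 had log2 ratios of -0.79 and -0.75. The PI3K regulatory subunits parted, with PIK3R1 at -0.60 and PIK3R2 and PIK3R3 at 0.69 and 0.67.

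Receptors of the IGF axis lay higher and the IRS adaptors lower. The median transcript length of this list, 6239 nt, also fell in the longest length group. IGF1R, the receptor for insulin-like growth factors, was the sole member of 11 that was called, with 13.8 and 12.4 CPM in untreated cells and 28.4 CPM (25.95 to 31.1) at D3. Its log2 ratio of 1.09 became 0.66 in cells under 10% MT, where it was not called. IGF2R, the scavenging receptor for IGF2, stood at 0.86 and the adaptor GRB10 at 0.82. IRS1, the adaptor that couples IGF1R to PI3K, had 27.7 and 31.2 CPM in untreated cells and 14.3 CPM at D3, and IGFBP5, an IGF binding protein, was at 157 and 169 CPM before and 79.8 CPM after. Both missed the limit against 1 untreated library in all cells and were called lower in cells under 10% MT, at -1.18 and -1.13. IGFBP2, another IGF binding protein, had 127 and 125 CPM in untreated cells and 196 CPM (189 to 203) at D3. Its log2 ratio was 0.63 in all cells and 0.56 in cells under 10% MT, above both untreated libraries but under 2-fold. An IGFBP2 UMI was found in 43.3% and 42.99% of thinned untreated cells and in 61.8% of D3 cells (57.3 to 66.2). IGFBP3 and IGFBP4 had log2 ratios of -0.71 and -0.56.

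Among receptor kinases outside these families, KIT and ROR1 rose in both sets of cells. The list's median transcript length was 5697 nt, within the second longest length group of genes. That group had medians of 0.12 in all cells and 0.03 in cells under 10% MT. KIT, the receptor for stem cell factor, had 11.5 and 10.3 CPM in untreated cells and 36.8 CPM (33.9 to 39.8) at D3, with a KIT UMI in 6.28% and 5.27% of thinned untreated cells and in 21.1% (17.5 to 25.02) of D3 cells. ROR1, a receptor for WNT5A, went from 3.96 and 3.802 to 11.8 CPM. The log2 ratios of these receptors were 1.71 and 1.49, and 1.36 and 1.54 in cells under 10% MT. MET, the receptor for hepatocyte growth factor and a known bypass of EGFR inhibition, lay on the other side, with 71.2 and 74.7 CPM in untreated cells and 39.6 CPM at D3 (log2 ratio -0.87). NTRK2 had a log2 ratio of 1.04 in all cells and 0.43 in cells under 10% MT, DDR1 of 0.75 and 0.54, and FGFR1 of 0.59 and 0.29. Of the ligands on the list, PDGFA lay lowest, at -0.91, and PDGFC and GAS6 were at 0.01 and 0.30.

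The deepest decrease was that of the metallothioneins, small cysteine-rich proteins that bind zinc and copper and whose genes are switched on by the zinc sensor MTF1 through metal response elements. MT1E (chromosome 16, 56625475 to 56627112) had 1365 and 1306 CPM in untreated cells and 25.6 CPM (23.2 to 28.1) at D3, which is 50.1-fold lower than the nearer untreated library. MT2A (chromosome 16, 56608584 to 56609497) went from 3243 and 3183 CPM to 241 CPM (233 to 248), 13.2-fold lower. The neighbouring MT1X went from 244 and 239.6 to 25.2 CPM and MT1F from 62.4 and 66.1 to 18.9 CPM. All 4 stood far below both untreated libraries. In cells under 10% MT their log2 ratios were -5.09, -3.24, -2.65 and -1.25, against -5.68, -3.74, -3.24 and -1.74 in all cells. The loss was seen across cells and not in a few. MT2A UMIs were found in 99.4% and 99.2% of thinned untreated cells and 51.1% (46.6 to 55.7) of D3 cells, and MT1E UMIs in 96.2% and 93.4% of untreated and 10.4% (7.85 to 13.5) of D3 cells. The median thinned cell held 20 and 20 UMIs of the metallothionein and zinc transport list in the untreated libraries and 3 at D3, and 22, 22 and 4 among cells under 10% MT. Metallothionein genes are close copies of each other, so reads may have been split among them by the counting, and the values of single copies are uncertain.

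Zinc transporters moved with the metallothioneins in part. SLC30A1, the plasma membrane zinc exporter and another MTF1 target, went from 15.1 and 16.2 to 2.98 CPM. SLC39A10, a zinc importer that metal represses, went the other way, from 24.6 and 21.3 to 68.1 CPM. Of the 15 kept genes on the list 5 fell and 1 rose, and the same 6 genes were called in cells under 10% MT. The list's median log2 ratio of 0.10 does not show this. As the letters that MTF1 recognises are known, the promoters of the genes that fell and are in the table of RefSeq promoters used here are printed below from 250 bases before to 50 bases after the gene's start on GRCh38.p14, with capitals for each match to the metal response element core TGCACNC or TGCGCNC on either strand.
MT2A, chr16:56608334-56608633, plus strand: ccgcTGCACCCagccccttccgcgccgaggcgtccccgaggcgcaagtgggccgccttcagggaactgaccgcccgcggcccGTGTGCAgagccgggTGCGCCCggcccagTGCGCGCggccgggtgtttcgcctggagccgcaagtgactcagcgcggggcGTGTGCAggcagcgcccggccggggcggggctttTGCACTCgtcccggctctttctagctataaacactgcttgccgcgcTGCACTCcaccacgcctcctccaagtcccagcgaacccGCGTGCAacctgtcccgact
MT1X, chr16:56682220-56682519, plus strand: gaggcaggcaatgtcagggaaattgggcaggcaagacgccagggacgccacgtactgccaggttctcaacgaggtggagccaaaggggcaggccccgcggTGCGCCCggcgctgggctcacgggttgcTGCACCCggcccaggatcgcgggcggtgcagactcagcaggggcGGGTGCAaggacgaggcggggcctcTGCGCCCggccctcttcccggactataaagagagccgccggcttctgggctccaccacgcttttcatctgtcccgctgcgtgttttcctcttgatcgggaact
SLC30A1, chr1:211579112-211579411, minus strand: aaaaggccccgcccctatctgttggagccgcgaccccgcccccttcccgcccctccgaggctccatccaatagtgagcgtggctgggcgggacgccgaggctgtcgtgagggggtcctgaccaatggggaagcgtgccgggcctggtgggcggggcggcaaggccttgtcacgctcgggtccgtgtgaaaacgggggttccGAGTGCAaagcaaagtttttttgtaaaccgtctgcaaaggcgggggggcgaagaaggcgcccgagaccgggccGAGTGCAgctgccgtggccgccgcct
The MT2A promoter held 8 matches (5 on the gene's strand and 3 on the other), MT1X 4 (3 and 1) and SLC30A1 2 (0 and 2), with 0 overlapping. Both listed starts of SLC39A10 held fewer, with 0 matches at chr2:195656708-195657007 and 1 at chr2:195656976-195657275. The table used here had no entry for MT1E and MT1F. Of all 35116 promoters of this length 29.6% held at least 1 match, 8.6% at least 2, 0.601% at least 4 and 0.162% at least 5. A match describes the letters and not a bound site.

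The 15 largest decreases among genes of at least 20 CPM held MT1E, MT2A, MT1X and FOSL1, described above, KLK6, KLK5 and INHBA, described below, and 8 others. CST6, a secreted cystatin that inhibits cathepsins, went from 96.7 and 94.7 to 7.38 CPM. ATP6V0D2, which encodes part of the proton pump of lysosomes, went from 51.8 and 46.7 to 6.19 CPM, and RGS2, which turns off G protein signalling, from 63.9 and 68.9 to 9.58 CPM. These 3 fell more than 6-fold. CAV1, the coat protein of caveolae, went from 503 and 491 to 84.4 CPM and UCP2, a mitochondrial carrier, from 107 and 101 to 18.1 CPM. ADIRF and C5orf46 had log2 ratios of -2.31 and -2.19. PPP1R14B-AS1 had -2.47, but it lies antisense to PPP1R14B and whether the counting used strand is not given in the sources used here. In cells under 10% MT, CST6, ATP6V0D2, RGS2 and CAV1 had log2 ratios of -2.90, -2.43, -1.996 and -2.24, each smaller in size than in all cells and each still called.

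**Figure D4:**
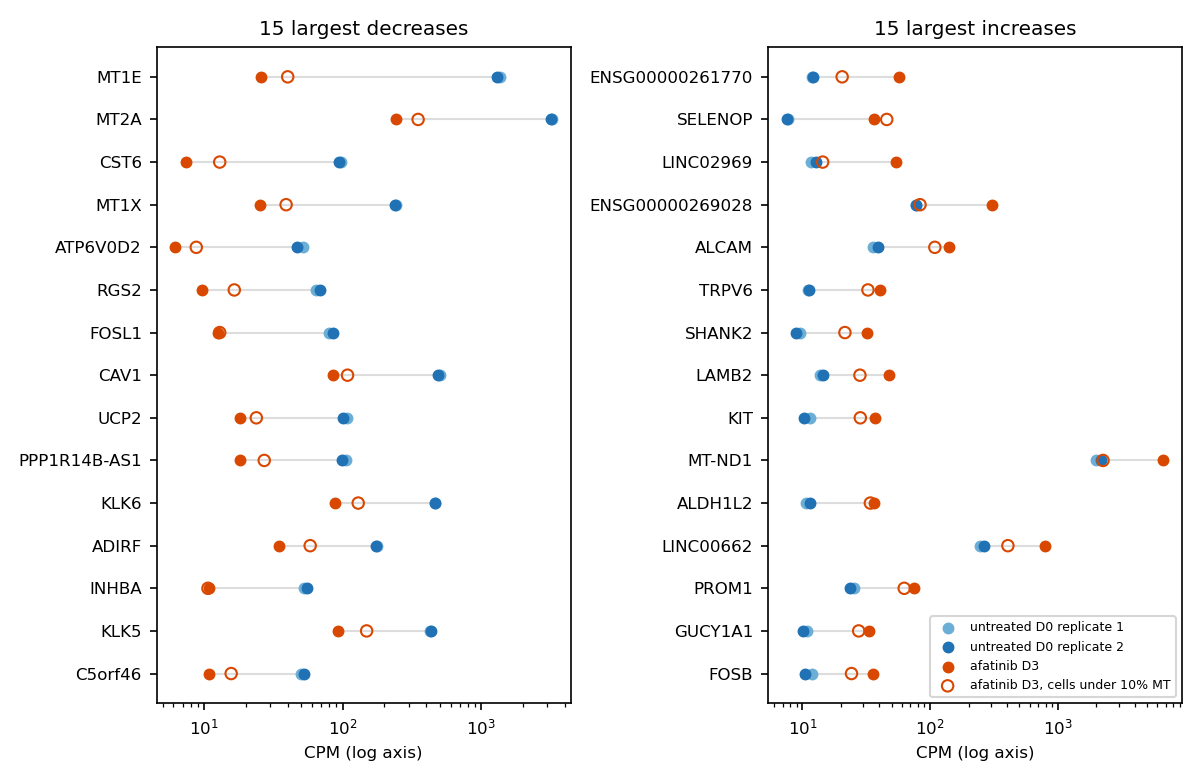
Level in CPM (log axis) of the 15 largest decreases and the 15 largest increases at D3, in untreated D0 replicate 1 (light blue), untreated D0 replicate 2 (dark blue), D3 (orange) and the D3 cells under 10% MT (open circles, scaled within cells under 10% MT). The open circles of the decreases lie close to the D3 points, whereas those of MT-ND1 and ENSG00000269028 lie far below them. Against untreated cells under 10% MT the log2 ratios of MT-ND1 and ENSG00000269028 were 0.41 and 0.51.

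The largest increases were smaller than the largest decreases and mixed surface proteins with noncoding and mitochondrial RNAs. SELENOP, a secreted selenium carrier, went from 7.75 and 7.498 to 36.6 CPM and ALCAM, a cell adhesion molecule of the immunoglobulin family, from 35.6 and 39.3 to 141 CPM. TRPV6, a calcium channel of epithelia, went from 11.1 and 11.3 to 40.6 CPM. These surface and secreted proteins held their increase in cells under 10% MT, with log2 ratios of 2.47, 1.58 and 1.57 there against 2.19, 1.90 and 1.81 in all cells. PROM1, the pentaspan membrane protein CD133, went from 25.2 and 23.6 to 75.3 CPM, and ALDH1L2, a mitochondrial enzyme of folate metabolism, from 10.6 and 11.5 to 36.2 CPM. LAMB2, a laminin chain, GUCY1A1, a subunit of soluble guanylate cyclase, and the scaffold protein SHANK2 had log2 ratios of 1.72, 1.62 and 1.73. KIT and FOSB complete the protein-coding nuclear genes of the 15, of which FOSB was not called in cells under 10% MT, at 1.04.

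The other increases among the 15 were smaller in cells under 10% MT, where they were not called. MT-ND1 went from 1976 and 2169.6 to 6671 CPM. The unnamed gene ENSG00000269028 went from 77.4 and 77.6 to 306 CPM and ENSG00000261770 from 11.9 and 12.1 to 57.4 CPM. Among cells under 10% MT their log2 ratios were 0.41, 0.51 and 0.95. The long noncoding RNA LINC02969 had log2 ratios of 2.09 in all cells and 0.39 in cells under 10% MT, and LINC00662 of 1.64 and 0.78. Counted in CPM rather than in fold, the largest gains outside the MT genes were those of MALAT1, LINC00662, APP, ENSG00000269028, PHGDH and ID4. APP, the amyloid precursor protein, went from 176 and 175 to 355 CPM, with a log2 ratio of 0.70 in cells under 10% MT, where it was not called. The largest losses were those of MT2A, RPS29, RPS27, S100A2, LGALS1 and ACTB. LGALS1, a galactose-binding lectin, went from 3311 and 3217 to 1412 CPM, and ACTB, the cytoskeletal actin, from 4697 and 4609.7 to 2241 CPM, with log2 ratios of -0.77 and -0.95 in cells under 10% MT.

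Genes of squamous and basal epithelium fell in part. Of 16 kept genes on the basal and squamous list 4 fell and 1 rose, with a median of -0.46, and -0.38 in cells under 10% MT. The hair keratin KRT81 went from 796 and 832 to 229 CPM and KRT15, a keratin of basal progenitors, from 229 and 233 to 52.2 CPM. KRT6B, a keratin of activated keratinocytes, went from 42.7 and 36.9 to 17.9 CPM. PI3, the secreted elastase inhibitor elafin, was the member that rose, from 17.9 and 17.8 to 37.8 CPM. The main basal keratin KRT5 was not called, with 529.8 and 545 CPM in untreated cells and 657 CPM at D3, and KRT14 was at 46.8 and 57.2 CPM before and 62.1 CPM after. The keratins that fell were therefore others than KRT5 and KRT14. With only cells under 10% MT the same 5 genes were called and KRT17 was called lower as well, at a log2 ratio of -1.33. Reads of KRT81 and KRT6B may be shared with the close copies of these genes.

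Kallikreins, secreted serine proteases of the epidermis that lie in a cluster on chromosome 19, fell. Of 16 kept kallikreins and protease inhibitors 6 fell and 2 rose, with a median of -0.64, and -0.52 in cells under 10% MT. KLK6 went from 467 and 462 to 87.4 CPM, KLK5 from 428 and 432 to 92.5 CPM and KLK10 from 46.9 and 44.1 to 12.9 CPM. Their log2 ratios of -2.40, -2.21 and -1.78 were -1.86, -1.57 and -1.93 in cells under 10% MT. KLK8 was called in all cells only, with -1.54 there and -0.76 in cells under 10% MT. The inhibitors parted. CST6 and TIMP3, an inhibitor of metalloproteases that went from 45.4 and 51.04 to 19.2 CPM, fell, while the elastase inhibitors PI3 and SLPI rose.

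S100 proteins, small calcium-binding proteins of epithelia, had the lowest median of all lists, -1.22, with 7 of 12 genes called lower and 0 higher. S100A2 went from 2679 and 2573 to 919 CPM and S100A9, a subunit of calprotectin, from 89.8 and 84.3 to 32.01 CPM. When cells over 10% MT were left out the median was -0.53 and 0 of these genes were called, with S100A2 at -1.03 and S100A9 at -0.56. S100A2 missed the limit there against the nearer untreated library.

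Regulators of epidermal differentiation gave 1 call among 13 genes, ZNF750, a zinc-finger factor of keratinocyte differentiation, which rose from 6.75 and 7.604 to 22.97 CPM. Among 12 luminal and secretory genes AGR2, a disulfide isomerase of mucus-producing cells, fell from 14.2 and 13.4 to 2.14 CPM, and LCN2, a secreted siderophore binder, fell from 95.4 and 92.9 to 37.4 CPM in all cells but was not called in cells under 10% MT, at -0.56. Of 24 adhesion genes ALCAM rose and CLDN1, a tight junction claudin, fell from 11.1 and 12.2 to 4.82 CPM. The list's median was -0.19. Of 9 matrix and mesenchymal genes the membrane metalloprotease MMP14 rose, at 1.38, and the matrix protein THBS1 fell, at -1.34. THBS1 alone was called in cells under 10% MT, at -1.57.

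Of 18 kept genes of the activin, BMP and TGF-beta branch 5 fell and 1 rose, and secreted factors were among those that fell. In cells under 10% MT 3 of the 18 genes were called lower and 0 higher. INHBA, the activin beta A subunit, went from 52.4 and 55.1 to 10.8 CPM and its antagonist FST, follistatin, from 31.6 and 33.7 to 7.56 CPM. BMP2 went from 21.8 and 19.6 to 6.37 CPM, and INHBB and the BMP target ID1 also fell, at -1.07 and -1.12. The ligand INHBA and its antagonist were lower together. ID4, an inhibitor of basic helix-loop-helix factors, rose from 133 and 141 to 283 CPM, with a log2 ratio of 0.92 in cells under 10% MT, where it was not called. Of 10 Notch genes the receptor NOTCH3 and the feedback gene NRARP rose, at 1.13 and 1.80, and of these NRARP alone also did so in cells under 10% MT, at 1.26. Of 18 YAP and TEAD targets NT5E, NUAK2 and FSTL1 fell, at -1.77, -1.18 and -1.13, and 0 rose, and FSTL1 alone was called in cells under 10% MT, where the values were -1.03, -1.01 and -1.25.

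Amino acid and stress genes of the ATF4 programme rose in part. The integrated stress response couples amino acid shortage, unfolded proteins and other insults to the transcription factor ATF4, which induces amino acid transporters and biosynthetic enzymes. Of 27 kept genes 5 rose and 0 fell, with a median of 0.54, and 7 rose in cells under 10% MT, where the median was 0.77. SLC7A11, the cystine importer, went from 5.05 and 5.28 to 24.99 CPM (22.7 to 27.5), with log2 ratios of 2.17 and, in cells under 10% MT, 1.97. PHGDH, the first enzyme of serine synthesis, went from 279.7 and 278 to 576 CPM and SESN2, a sestrin induced by ATF4, from 10.8 and 11.3 to 23.9 CPM. SLC7A5, the large neutral amino acid importer, and VLDLR, a lipoprotein receptor induced by ATF4, had log2 ratios of 1.20 and 1.08, and SLC7A5 missed the limit in cells under 10% MT, at 1.01. Within the cells under 10% MT the called genes also included DDIT3 (CHOP) at 1.08, CHAC1, which degrades glutathione, at 1.103, and the mTORC1 inhibitor DDIT4 at 1.30. The list's median ratio to untreated cells was thus larger among cells under 10% MT than among all cells. The median thinned cell held 17 and 16 UMIs of this list in the untreated libraries and 24 at D3, and 27 in D3 cells under 10% MT. The thinned UMIs include MT transcripts, with a mean of 317 in D3 cells under 10% MT and 1257 in the other D3 cells. The UMIs of these sets of D3 cells are thus not on an equal footing. The aminoacyl-tRNA synthetases, many of which ATF4 also induces, gave 0 calls among 20 genes, with medians of 0.06 and 0.26.

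Antioxidant genes split by gene. Of 24 NRF2 and antioxidant genes 4 rose (SLC7A11, SELENOP, AKR1C1 and AKR1C2) and 2 fell (TXN and SOD1). AKR1C1 and AKR1C2, near-identical aldo-keto reductases whose reads may be shared, went from 3.31 and 3.27 to 17.5 CPM and from 2.92 and 2.15 to 12.9 CPM. Among cells under 10% MT the 4 rises were called and the 2 falls were not, with TXN at -0.83 and SOD1 at -0.70. Of 19 heat shock and chaperone genes HSPB1, a small heat shock protein, fell from 215.9 and 228 to 68.1 CPM in all cells, where the list's median was -0.65, and was not called in cells under 10% MT, at -0.90. Of 15 p53 targets 0 were called in all cells. In the BCL2 family BCL2, an inhibitor of apoptosis, rose from 4.53 and 4.75 to 10.4 CPM in all cells and was not called in cells under 10% MT, at 0.81. BBC3, the death-promoting BH3 protein PUMA, was called higher in cells under 10% MT, at 1.21, but not in all cells.

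More interferon-stimulated genes were called among cells under 10% MT than among all cells. Of 26 kept genes 2 rose and 0 fell in all cells, with a median of 0.60, whereas in cells under 10% MT 13 of 27 rose and the median was 1.27. IFI44L had 1.83 and 1.72 CPM in untreated cells and 11.1 CPM (9.53 to 12.8) at D3, and OASL, an antiviral protein of the OAS family, went from 8.97 and 2.64 to 19.99 CPM, with untreated libraries that themselves lay more than 2-fold apart, and OASL was not called in cells under 10% MT. With only cells under 10% MT IFI44L had a log2 ratio of 3.19, IFI6 of 2.20, the ubiquitin-like ISG15 of 1.44, MX1 of 1.75, and the interferon signalling factors STAT2, IRF7 and IRF9 of 1.103, 1.07 and 1.49. IFIT1, IFIT2 and IFIT3, antiviral proteins induced early by interferon, were not called, since the untreated libraries differed more than D3 did from 1 of them. IFIT2 was at 17.4 and 0.986 CPM before (untreated D0 replicates 1 and 2) and at 15.1 CPM at D3, IFIT1 at 16.5 and 2.46 and then 15.6 CPM, and IFIT3 at 14.01 and 2.96 and then 18.2 CPM. Against untreated D0 replicate 1 alone their log2 ratios were -0.08, -0.20 and 0.37, and against untreated D0 replicate 2 alone they were 2.44, 3.39 and 2.44. The log2 ratio of OASL was likewise 1.11 and 2.71. The list's UMIs were unevenly held by cells. The 10% of thinned cells with the most UMIs of this list held 34.6% and 32.6% of them in the untreated libraries and 53.7% at D3, and 21 of the 48 D3 cells among these lay under 10% MT, although such cells made up 17.7% of D3. The median D3 cell held 3 UMIs of the list, as did the median cell of each untreated library. Among D3 cells the median was 5 UMIs under 10% MT and 2 in the other cells, and in untreated cells under 10% MT it was 3 and 4. The list was unevenly held under 10% MT too, where the top 10% of cells held 51.3% of its UMIs at D3 and 35.1% and 33.2% in the untreated libraries, and 1 D3 cell held 117 UMIs. The ratios of this list in the 85 D3 cells thus rest largely on few cells. Class I antigen presentation, which interferon also induces, had medians of 0.43 and 0.69, with HLA-F and the trimming peptidase ERAP1 called higher in cells under 10% MT, at 1.30 and 1.23. PSMB10, an immunoproteasome subunit, was called lower in all cells, at -1.05, and not in cells under 10% MT, at -0.58. Among 10 chemokine and NF-kB genes CCL5 rose from 4.05 and 1.197 to 9.04 CPM, again with untreated libraries more than 2-fold apart, at log2 ratios of 1.07 against untreated D0 replicate 1 alone and 2.49 against untreated D0 replicate 2 alone. A CCL5 UMI was found in 4 of 478 and 1 of 1063 thinned untreated cells and in 6 of 479 D3 cells (1.25%, 0.461 to 2.71), so few cells carry its level, and it was not called in cells under 10% MT.

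Genes of hypoxia and glycolysis moved apart from each other. Of 23 kept genes 2 rose and 4 fell, with a median of -0.46. VEGFA, the angiogenic growth factor, went from 22.98 and 20.9 to 57.7 CPM, while ADM, the peptide adrenomedullin, went from 24.2 and 25.2 to 6.903 CPM. SLC16A3, the lactate exporter MCT4, went from 29.1 and 32.9 to 10.3 CPM and LDHA, which makes lactate, from 396 and 393 to 183 CPM. When cells over 10% MT were left out VEGFA, ADM and SLC16A3 were still called, at 1.23, -1.13 and -1.32, and LDHA was not, at -0.72. Of 31 genes of cholesterol and fatty acid synthesis 2 rose, including SREBF2, a transcription factor of sterol synthesis, at 1.03, and 0 fell, and the list's median was 0.04. Neither was called in cells under 10% MT, where SREBF2 was at 0.86. BBOX1, the last enzyme of carnitine synthesis, rose from 7.05 and 6.8996 to 15.7 CPM, alone among 18 genes of fatty acid oxidation. Lysosomal genes gave 1 call among 36, ATP6V0D2 described above, and a median of -0.02. That is 2.78% called lower, against 2.82% over all genes kept. The kinase ULK1, which starts autophagy, rose at 1.33 in all cells, with 0.45 and no call in cells under 10% MT, among 21 autophagy genes whose median was -0.21. ALDH2, the mitochondrial aldehyde dehydrogenase, rose at 1.26 and the drug exporter ABCC3 fell at -1.25, among 11 such genes.

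Nuclear genes of mitochondria and ribosomes lay lower as whole lists, in the direction opposite to the mitochondrially encoded genes. Of 74 nuclear-encoded OXPHOS genes 69 lay below both untreated libraries, 7 were called lower and the median was -0.67. All 79 cytosolic ribosomal protein genes and all 76 mitochondrial ribosomal protein genes lay below both untreated libraries, against 4800 of all 10281 genes kept, with 8 and 11 called and medians of -0.71 and -0.73. RPS29 went from 2963 and 2857 to 1010.4 CPM, ATP5ME, a small subunit of ATP synthase, from 563 and 556 to 164 CPM and MRPL33 from 429 and 420.1 to 169 CPM. Most of these transcripts are short, and the shortest of the 5 length groups of genes had a median of -0.39. Within the cells under 10% MT the medians were -0.28, -0.22 and -0.38, and ATP5ME was the sole gene of the 3 lists still called. Ribosome biogenesis genes had a median of -0.48 with NPM1, a nucleolar chaperone, called lower, and proteasome subunits one of -0.64 with PSMB6 called lower, and neither NPM1 nor PSMB6 was called in cells under 10% MT, at -0.66 and -0.60. Ribosomal protein genes have many pseudogenes, so their counts are uncertain.

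The mitochondrial genome's own transcripts lay higher in all cells, with 5 of 13 called (MT-ND1, MT-ND2, MT-ND4, MT-ND5 and MT-CO3), a median of 0.94 and 0 called lower. Among cells under 10% MT the median was -0.28, but the filter on MT counts itself sets that value. The gain was unequal. MT-ND1 had a log2 ratio of 1.69 and MT-CO3 of 1.095 in all cells. MALAT1, which stays in the nucleus, rose from 5876 and 6874 to 14430.3 CPM, with a log2 ratio of 0.01 in cells under 10% MT. Of 45 chromatin modifier genes 39 lay above both untreated libraries, against 4586 of all 10281 genes kept, with a median of 0.47, and 0.22 in cells under 10% MT, but TET1, a DNA demethylating enzyme, was the sole gene called, at 1.16 in all cells and, no longer called, 0.71 in cells under 10% MT. The chromatin modifier genes are long, with a median transcript length of 7782 nt. The longest of the 5 length groups of genes had medians of 0.30 in all cells and 0.08 in cells under 10% MT. The share of 2.22% called higher on this list lay near the 2.64% over all genes kept. Of 33 histone genes H4C3 was called lower (3.03%, against 2.82% over all genes kept). Its log2 ratio was -1.33 in all cells and, no longer called, -0.52 in cells under 10% MT.

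**Figure D5:**
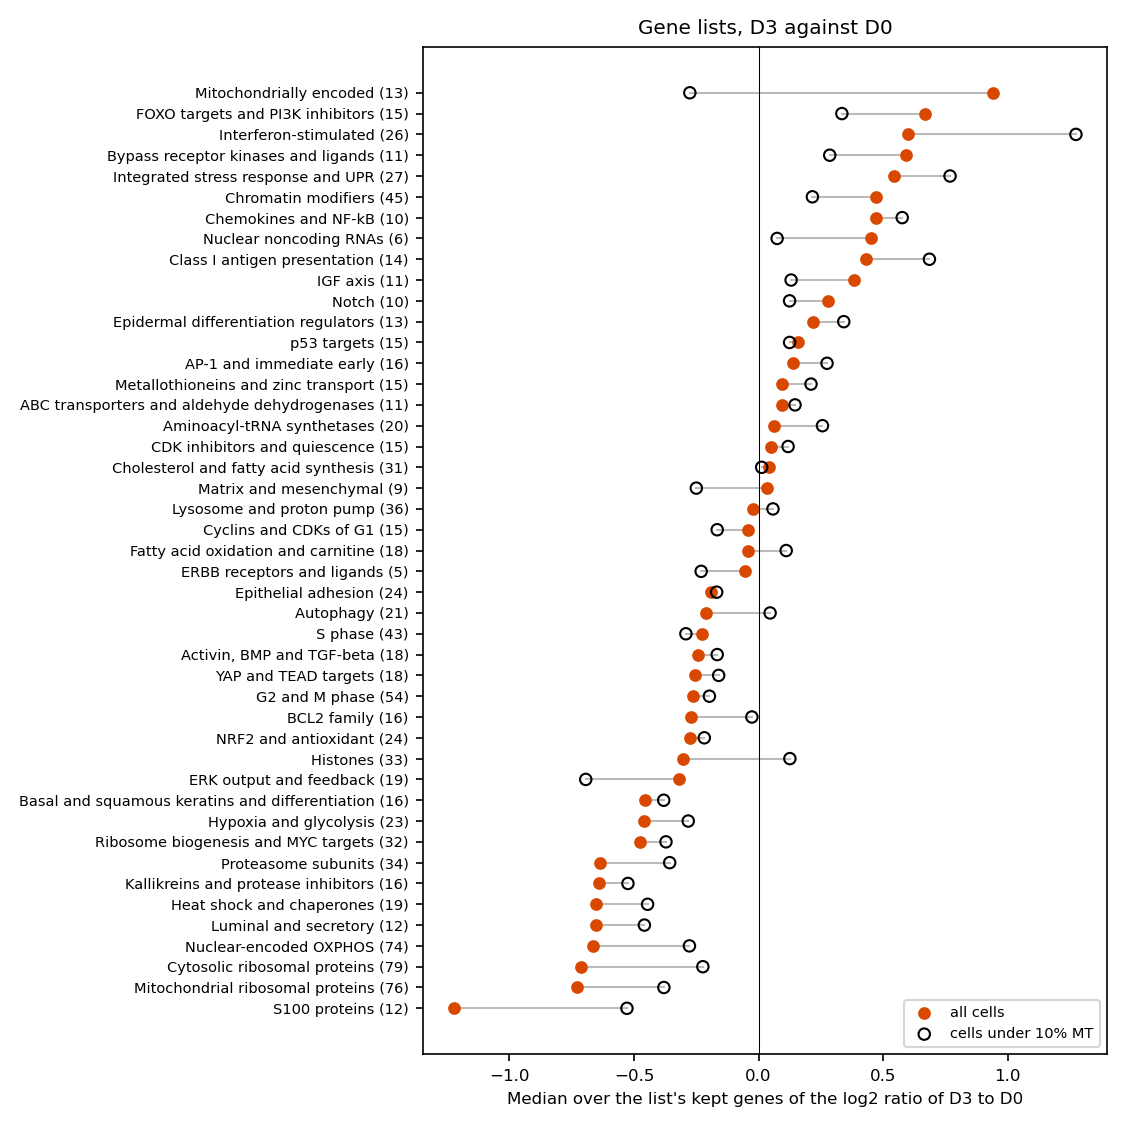
Median log2 ratio of D3 to D0 over the kept genes of each gene list (number kept in brackets), in all cells (orange) and in cells under 10% MT (open circles). S100 proteins lie lowest in all cells, at -1.22, and interferon-stimulated genes highest in cells under 10% MT, at 1.27, and the MT genes change sides with the filter that is made from them.

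A smaller share of D3 cells was called in G2 or M phase, while 0 genes of the S phase and of the G2 and M phase lists were called. Phases were called from the S phase and G2 and M phase lists in cells thinned to 5000 UMIs. G2 or M phase held 45.6% and 45.3% of untreated cells and 33.4% of D3 cells (exact binomial interval 29.2 to 37.8). G1 held 18.8% and 15.4% of untreated cells and 24.8% (21.0 to 29.0) of D3 cells, and S phase 35.6%, 39.2% and 41.8% (37.3 to 46.3). The D3 share in G2 or M phase lay outside both untreated shares, and the interval of the D3 share in S phase included that of untreated D0 replicate 2. Without thinning, S phase held 39.7% and G2 or M phase 33.6% of D3 cells. Of the D3 cells under 10% MT, 35.3% (25.2 to 46.4) were called in G1, 30.6% (21.0 to 41.5) in S phase and 34.1% (24.2 to 45.2) in G2 or M phase, against 19.8% and 14.9%, 35.9% and 39.4%, and 44.3% and 45.7% of untreated cells under 10% MT. The S phase share of D3 thus lay above both untreated shares in all cells and below both in cells under 10% MT, within its counting interval in the latter. Phase calls cut a continuous score, and 54, 124 and 69 cells of the 3 libraries lay near the cut. Of 43 S phase genes and 54 G2 and M phase genes 0 were called in either direction, with medians of -0.23 and -0.26, and -0.29 and -0.20 in cells under 10% MT. Cyclins and CDKs of G1 gave 1 call among 15 genes, E2F2, a transcription factor of S phase entry, at 1.29 (not called in cells under 10% MT, at 0.97), and CDK inhibitors and quiescence genes gave 0 among 15, with a median of 0.05.

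Few genes set D3 apart from the later afatinib libraries as well as from untreated cells. At the same size against each of the other 4 libraries, 3 genes (0.0292%) were higher at D3 and 0 (0%) were lower. They were IFI44L, ENSG00000261770 and IGFL1, of which the last was named after its values were seen. IFI44L stood at 11.1 CPM at D3 and at 4.67 and 4.604 CPM at D6 and D9. An IFI44L UMI was found in 20 of 479 thinned D3 cells (4.18%) and in 1.59% and 1.23% of D6 and D9 cells, so few cells carry its level. ENSG00000261770 stood at 57.4 CPM at D3 and 27.7 and 13.9 CPM later. IGFL1, a secreted protein of the IGF-like family, had 2.13 and 1.69 CPM in untreated cells, 14.5 CPM at D3 and 6.39 and 6.37 CPM at D6 and D9. With a pseudocount of 2 CPM 0 genes were higher at D3 than in all other libraries, and with a minimum of 20 CPM 1 was. MT2A, AREG and FOSL1, which fell at D3, were lower still in the later libraries. MT2A stood at 217 and 58.5 CPM at D6 and D9 against 241 CPM at D3, AREG at 1.66 and 1.105 CPM and FOSL1 at 11.1 and 5.08 CPM. EGFR, level at D3, stood at 777 and 509 CPM.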

How the data were processed

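Transcripts of single cells were counted with a 3′ Chromium kit. The submitters' processing notes name Cell Ranger 6.1.2 and GRCh38, and the study's methods a GENCODE annotation. The authors then dropped cells with under 5000 UMIs, outlying MT shares and putative doublets, adjusted the captures of D0 with ComBat-seq and removed low genes. The deposited values are expected counts, namely UMIs of a gene in a cell as they stood after that adjustment by the authors, all of them whole and without scaling to depth. Besides these, the deposited files hold cell names, gene identifiers and symbols, which are other columns without a measurement. Columns of other series numbered 0. Since an adjustment draws the D0 libraries together, the spread between them may understate the true one.

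Counts were summed per library and scaled to CPM with TMM factors (edgeR 4.0.16 in R 4.3.3, reference untreated D0 replicate 1). No test was run, because 1 treated library gives no spread. A pseudocount of 0.5 CPM, a mean of at least 5 CPM over both groups and a log2 ratio of at least 1 against both D0 libraries were used. The rules were tested on simulated data whose changed genes lay above both limits in level and in size. The recovery of genes near these limits was not tested. Cells were thinned to 5000 UMIs for shares and phases (scanpy 1.11.5, Python 3.11.15). Intervals are exact Poisson or binomial 95% intervals and cover counting error only, since the cells of a library are not replicates.

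Members and the 48 gene lists were chosen with earlier results of these data known. Named were the 15 largest increases and decreases among called genes of at least 20 CPM, the 6 largest gains and losses in CPM outside MT genes, up to 6 called members of each list, every member of the EGFR pathway lists, EGFR, ERBB2, IGFBP2 and IGF1R, and the genes apart from all other libraries. Members of lists that were not called in all cells (EGR1, ATF3, KRT5, KRT14, KRT17, BBC3, the IFIT and other interferon genes, HLA-F and ERAP1), the cell type markers and IGFL1 were named after their values were seen. Of 14 alternatives 12 were planned and 2 added, and DESeq2 1.42.0 gave size factors only. Promoters came from RefSeq on GRCh38.p14, in a table that held MT2A, MT1X, SLC30A1 and SLC39A10 and no entry for MT1E and MT1F. Some members of the gene lists, called or not, are counted but not reported by name here.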

Additional observations from a re-analysis of the deposited data

How the results depend on the processing

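No paired analysis was possible because D3 has 1 library and no replicate number, so no replicate block could be fitted, and values are sizes without a test. Leaving out untreated D0 replicate 1 or 2 in turn gave 334 to 357 genes at least 2-fold higher and 336 to 364 lower, against 271 and 290 with both. All 135 named genes that were called kept their direction in every alternative but that of cells under 10% MT (134 could be followed with the length trend removed). In cells under 10% MT 133 did, the exceptions being MT-ND2 and MT-ND4 at -0.17 and -0.28, which the filter on MT counts itself lowers. The ratio of a named gene moved by over 1.5 times in 34 genes in cells under 10% MT, 13 under 15% MT, 17 at or over 10% MT, 12 in G1 cells, 7 after thinning, 22 with the length trend removed and 2 (OASL and CCL5) when 1 untreated library was left out, whichever it was. The size factors of DESeq2 and TMM factors without MT and ribosomal protein genes moved none of the counts of higher and lower genes by over 1.5 times.

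The counts that moved by more than 1.5 times follow, with genes higher and lower at D3, genes apart between the untreated libraries, and genes apart from all other libraries. Plain CPM gave 577 higher, 160 lower and 5 higher than all others. Without a filter on low values 459 were higher, 44 separated the untreated libraries, and 6 were higher and 1 lower than all others. A minimum of 20 CPM left 87 higher, 2 between the untreated libraries and 1 higher than all others, since fewer genes were kept. A pseudocount of 2 CPM left 172 higher and 0 higher than all others. Cells under 10% MT gave 165 higher, 151 lower and 8 higher than all others, and cells under 15% MT 140 higher and 164 lower. G1 cells alone gave 94 between the untreated libraries and 23 higher and 3 lower than all others. Thinning to 5000 UMIs gave 465 higher, 601 lower, 84 between the untreated libraries, and 19 higher and 5 lower than all others. Cells at or over 10% MT gave 157 higher, 181 lower, 186 between the untreated libraries and 5 higher than all others. For these, apart from the minimum of 20 CPM, the cause was not tested. That last set of cells and the removal of the length trend, which gave 278 higher and 206 lower (195 and 159 of them shared with the counts in all cells), were chosen after seeing the data. The S phase share of D3 was 30.6% in cells under 10% MT, and the mean over cells of the MT share of D3 was 21.8%. The smaller sets rest on fewer counts, with 4217546 at D3 in cells under 10% MT.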
